A study of Homo sapiens with 4 samples.

Results

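The SLAM family is a set of immunoglobulin-like receptors of lymphocytes and other blood cells, and 8 of its genes are described here, namely the receptors LY9, SLAMF1, SLAMF6, SLAMF7, CD48 and CD84 and the adaptors SH2D1A and SH2D1B. They were taken as every probe set whose platform annotation names exactly 1 gene from this list. The list was chosen on results of these arrays, since LY9 had been noted for a higher value in Raji/R on 1 of its 3 probe sets, and that value is therefore given as a description. The rule found 26 probe sets for the 8 genes, of 41091 probe sets with a single symbol for 19775 genes. RNA came from Jeko-1/R and its parent Jeko-1, a mantle cell lymphoma line, and from Raji/R and its parent Raji, which derives from a Burkitt lymphoma. The drug used, rituximab, targets the B-cell surface protein CD20. The labels call the R lines rituximab-resistant and treated with rituximab and the parents untreated, and give no dose, time or statement on whether a subline is 1 clone. There was 1 array per line, 4 in all, so no group had a replicate and no p-value could be given within a line.

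Most SLAM receptors bind another copy of themselves on a neighbouring cell, and so link lymphocytes that touch each other. CD48 differs, as it is anchored to the membrane by a lipid and is the ligand of CD244 on NK and T cells. Inside the cell the receptor tails carry tyrosine motifs that bind the small adaptors SAP, encoded by SH2D1A, and EAT-2, encoded by SH2D1B. SAP brings in the kinase FYN, and in its absence the tails can recruit the phosphatases SHP-1, SHP-2 and SHIP-1. Inherited loss of SH2D1A causes X-linked lymphoproliferative disease. SLAMF7 is the target of the myeloma antibody elotuzumab.

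In the RefSeq table of assembly GRCh38.p14, SLAMF6, CD84, SLAMF1 and CD48 follow each other on chromosome 1 with no other coding gene between them. SLAMF7, LY9 and CD244 are likewise adjacent, 1 annotated coding gene beyond CD48. SH2D1B lies further along chromosome 1, and SH2D1A lies on the X chromosome. RefSeq promoter sequences matched 5 of the 8 genes. Those of SLAMF1, SLAMF6 and CD48 are shown because these 3 neighbouring genes had lower signals in the Jeko-1 lines than in the Raji lines. Each run covers the 250 bases before the gene start on GRCh38.p14, 5′ to 3′, with matches to the core GAGGAA of the factor PU.1 on either strand in capitals.
SLAMF1 (chr1:160647045-160647294, minus strand): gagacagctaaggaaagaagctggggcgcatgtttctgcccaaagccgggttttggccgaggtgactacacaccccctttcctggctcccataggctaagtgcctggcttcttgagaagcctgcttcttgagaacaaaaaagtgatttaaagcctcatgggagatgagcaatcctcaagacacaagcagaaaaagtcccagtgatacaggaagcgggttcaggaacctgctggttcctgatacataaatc
SLAMF6 (chr1:160523256-160523505, minus strand): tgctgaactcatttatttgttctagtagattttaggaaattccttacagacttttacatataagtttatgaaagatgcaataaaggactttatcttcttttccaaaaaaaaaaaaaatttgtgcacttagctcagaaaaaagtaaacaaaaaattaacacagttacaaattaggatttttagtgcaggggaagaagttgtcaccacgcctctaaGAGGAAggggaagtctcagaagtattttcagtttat
CD48 (chr1:160711823-160712072, minus strand): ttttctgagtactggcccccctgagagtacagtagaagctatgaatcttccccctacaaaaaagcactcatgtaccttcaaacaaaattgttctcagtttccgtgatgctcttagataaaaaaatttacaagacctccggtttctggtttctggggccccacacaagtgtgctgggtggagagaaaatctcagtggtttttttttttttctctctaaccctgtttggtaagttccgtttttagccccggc
The core was present in the SLAMF6 window and absent from those of SLAMF1 and CD48, and 23.6% of 35116 promoter windows of the same length held it. None of the 3 windows held the octamer ATTTGCAT, which 1.63% of windows held on either strand. The E-box form CANCTG, held by 42.5% of windows, was also missing from all 3. The other matched windows are not shown. That of SH2D1A, a gene called lower in the Jeko-1 lines on 1 probe set, held 1 PU.1 core and 2 E-boxes. That of SH2D1B held 0 of each. A match or its absence describes only these letters in this window.

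A value of 77.5, the median of all signals, served as the floor below which a signal was treated as not measured. The trimmed mean signal was 494 to 497 on the 4 arrays. On the Raji/R array 55.6% of all probe sets reached the floor, against 48.0% to 48.3% on the others. B-cell identity was clear, since all 5 B-cell markers read (CD79A, CD79B, CD22, PAX5 and MS4A1, the CD20 gene) reached the floor on every array. Because SLAM genes are also expressed by T, NK and plasma cells, markers of those cells were read too. Of 6 T-cell markers, 1 reached the floor in Jeko-1/R and 0 in Jeko-1, against 3 in Raji/R and 1 in Raji, and CD3E was below it on all 4 arrays. Of 6 NK-cell markers, 0 reached it in either Jeko-1 line, against 3 in Raji/R and 2 in Raji. Their summed signal was 283 in Jeko-1/R and 386 in Jeko-1, against 2735 in Raji/R and 1350 in Raji, and in the Raji lines most of it came from NKG7, a granule gene of cytotoxic cells. Of 6 myeloid markers, 1 reached the floor in Jeko-1/R and 0 in Jeko-1, against 3 in Raji/R and 2 in Raji. Summed T-cell signal was 359 and 242 in Jeko-1/R and Jeko-1, against 630 and 410 in Raji/R and Raji. No T-cell, NK-cell or myeloid marker stood at a log2 value of 0. The part of such signals in the SLAM values was not tested.

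**Figure D1:**
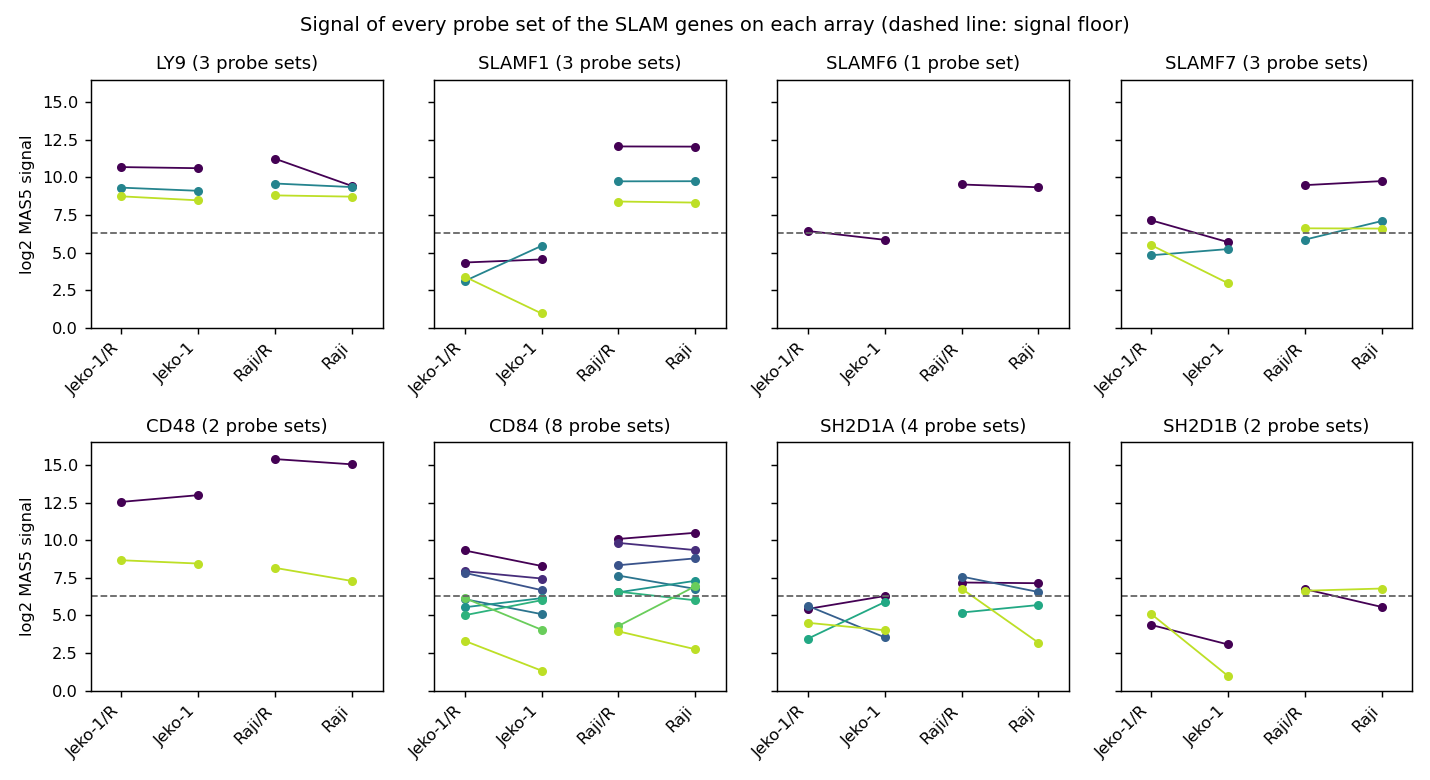
Log2 MAS5 signal (y axis) of each of the 26 probe sets of the 8 SLAM genes on the 4 arrays (x axis), 1 colour per probe set, with a line joining a resistant line to its parent and a dashed line at the floor. All 3 SLAMF1 probe sets stood below the floor in both Jeko-1 lines and above it in both Raji lines, while all 3 LY9 probe sets stood above it on every array.

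The contrast with the largest differences among these genes was between the lymphoma lines. The Jeko-1 lines had lower signals of SLAMF1, SLAMF6, SLAMF7, CD48 and CD84 than the Raji lines, and LY9 was present in both. Of the 26 probe sets, 24 were measured somewhere and were tested by limma with line and resistance as terms, with Benjamini-Hochberg adjustment over 29669 probe sets. At an adjusted p of 0.05, 11 of the 24 were called and all 11 were lower in the Jeko-1 lines. Over all probe sets 51.0% were called, 25.3% as lower and 25.7% as higher in the Jeko-1 lines. The called share of the SLAM probe sets (45.8%) was therefore near the background. The median difference was -0.71 on the log2 scale for the 24 SLAM probe sets, against -0.17 for all those tested. The 24 include LY9 231124_x_at, the probe set used to choose the list, which was not called. A parent and its subline are arrays of the same line, so the test compares these lines and not the lymphomas they came from.

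SLAMF1, a self-binding receptor that also serves as an entry receptor of measles virus, gave the widest separation. Its probe set 206181_at read 20.3 in Jeko-1/R and 23.4 in Jeko-1, against 4280 in Raji/R and 4245 in Raji. Both Jeko-1 lines were below the floor, and the Raji lines were close to each other. With the Jeko-1 values raised to the floor, SLAMF1 was at least 55.0-fold lower in the Jeko-1 lines (log2 difference -5.78 ± 0.25, SE; limma adjusted p = 4.73e-09). The probe set 239427_at read 8.65 and 43.7 in Jeko-1/R and Jeko-1, against 857 and 862 in Raji/R and Raji. The probe set 1555626_a_at read 10.6 and 1.94 in Jeko-1/R and Jeko-1, against 338 and 322 in Raji/R and Raji. These were at least 11.1-fold lower (limma adjusted p = 3.76e-06) and at least 4.25-fold lower (limma adjusted p = 0.000421). All 3 probe sets were below the floor in both Jeko-1 lines and above it in both Raji lines.

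SLAMF6, a self-binding receptor of T, B and NK cells, was read by a single probe set. Its signal was 86.7 in Jeko-1/R and 57.7 in Jeko-1, against 741 in Raji/R and 652 in Raji. Only Jeko-1/R of the Jeko-1 lines reached the floor, by a narrow margin. SLAMF6 was at least 8.48-fold lower in the Jeko-1 lines (log2 difference -3.08 ± 0.36, SE; limma adjusted p = 1.27e-05).

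SLAMF7, known as a marker of plasma cells and NK cells, differed on 1 of its 3 probe sets. The probe set 222838_at read 142 in Jeko-1/R and 51.9 in Jeko-1, against 719 in Raji/R and 866 in Raji. It was at least 7.52-fold lower in the Jeko-1 lines (log2 difference -2.91 ± 0.38, SE; limma adjusted p = 3.00e-05). The probe sets 219159_s_at and 234306_s_at were below the floor in both Jeko-1 lines and no higher than 137 in the Raji lines, and neither was called. Their log2 differences were -0.41 (95% interval -1.05 to 0.22) and -0.33 (95% interval -0.90 to 0.23).

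CD48, first described as an antigen that Epstein-Barr virus induces on B cells, was measured on all 4 arrays. The probe set 204118_at read 5980 in Jeko-1/R and 8155 in Jeko-1, against 43019.6 in Raji/R and 33786 in Raji. It was 5.46-fold lower in the Jeko-1 lines (log2 difference -2.45 ± 0.25, SE; limma adjusted p = 3.52e-06). The other CD48 probe set, 237759_at, ran the other way. It read 406 and 349 in Jeko-1/R and Jeko-1, against 286 and 156 in Raji/R and Raji, and was not called (log2 difference 0.83, 95% interval 0.06 to 1.60; limma adjusted p = 0.0681). The probe sets of CD48 therefore disagreed in direction.

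CD84, a self-binding receptor of B cells and platelets, was read by 8 probe sets. Of these, 4 were called lower in the Jeko-1 lines, 3 were tested and not called, and 211191_at stayed below the floor on every array. The probe set 230391_at read 637 in Jeko-1/R and 312 in Jeko-1, against 1082 in Raji/R and 1439 in Raji, and was 2.80-fold lower (log2 difference -1.49 ± 0.31, SE; limma adjusted p = 0.00128). The probe set 205988_at read 244 and 175 in Jeko-1/R and Jeko-1, against 903 and 648 in Raji/R and Raji, and was 3.70-fold lower (limma adjusted p = 0.00015). The probe set 244352_at, with 227 and 102 in Jeko-1/R and Jeko-1 against 322 and 442 in Raji/R and Raji, was 2.48-fold lower (limma adjusted p = 0.0213). The 3 brightest CD84 probe sets were thus all called lower in the Jeko-1 lines, a contrast in which 51.0% of all probe sets were called. The fourth called probe set, 211189_x_at, was below the floor in both Jeko-1 lines (67.4 in Jeko-1/R and 33.9 in Jeko-1) and read 200 in Raji/R and 108 in Raji (limma adjusted p = 0.035).

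LY9, also called SLAMF3 and found on T and B cells, stood above the floor on every array. Its probe set 215967_s_at read 641 in Jeko-1/R and 553 in Jeko-1, against 775 in Raji/R and 658 in Raji. The probe set 210370_s_at read 429 and 357 in Jeko-1/R and Jeko-1, against 448 and 423 in Raji/R and Raji. Neither was called, with log2 differences of -0.26 (95% interval -0.78 to 0.26) and -0.15 (95% interval -0.79 to 0.48). The difference for 231124_x_at, the probe set noted beforehand, depended on which Raji array was read. It was 1.22 without Raji/R and -0.59 without Raji. Adjacent coding genes on chromosome 1 thus included both SLAMF7, which was called on 1 probe set, and LY9, which was not called on these.

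The adaptor genes had low signals. SH2D1A probe set 211211_x_at read 43.1 in Jeko-1/R and 78.0 in Jeko-1, against 145 in Raji/R and 141 in Raji, and was at least 1.84-fold lower in the Jeko-1 lines (limma adjusted p = 0.0302). The adjusted p was 0.171 when values were neither floored nor filtered. The probe set 211210_x_at read 49.3 and 11.6 in Jeko-1/R and Jeko-1, against 191 and 93.9 in Raji/R and Raji, and was not called (limma adjusted p = 0.0656), though it was with values neither floored nor filtered (limma adjusted p = 0.0393). Of the other SH2D1A probe sets, 211209_x_at never reached the floor and 210116_at reached it only in Raji/R, at 110. SH2D1B probe set 1553176_at read 33.9 in Jeko-1/R and 1.94 in Jeko-1, against 99.5 in Raji/R and 110 in Raji. Its other probe set, 1553177_at, reached the floor only in Raji/R, at 107, and neither SH2D1B probe set was called. With values neither floored nor filtered 1553176_at was called as lower in the Jeko-1 lines (limma adjusted p = 0.0233). In these cultures fewer cells with a transcript and less of it per cell cannot be told apart.

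**Figure D2:**
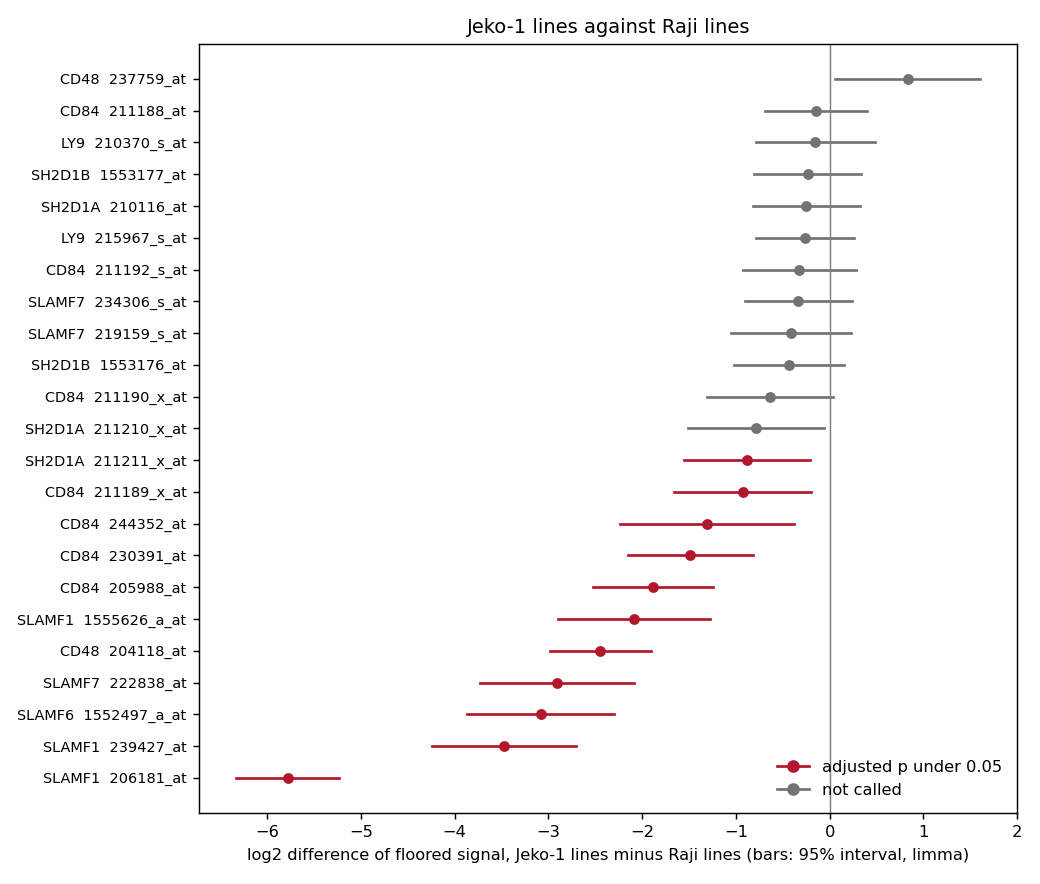
Difference of the mean floored log2 signal between the Jeko-1 lines and the Raji lines (x axis; negative is lower in the Jeko-1 lines) for 23 tested probe sets (y axis), with 95% intervals from limma; LY9 231124_x_at is left out because it was noted beforehand. The 11 red probe sets had an adjusted p under 0.05 and all lay below 0, from -5.78 for SLAMF1 206181_at to -0.88 for SH2D1A 211211_x_at.

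The calls depended on single arrays. A fit to 3 arrays also had to leave out the resistance term, so it differs from the full fit in both respects. Without Jeko-1/R or without Jeko-1 no call held. The log2 difference of CD48 204118_at, for one, was -2.23 without Jeko-1/R and -2.67 without Jeko-1. With a Raji array left out, the spread came from the Jeko-1 arrays alone. The calls that held without Raji/R were all on probe sets with a Jeko-1 value raised to the floor. Whether they held was therefore set in part by the floor, and they carry no weight. SLAMF7 222838_at and the CD84 probe sets 230391_at, 205988_at and 244352_at were lost both without Raji/R and without Raji. The log2 difference of SLAMF7 222838_at was -3.05 without Raji/R and -2.78 without Raji. CD48 204118_at was lost without Raji/R, where its log2 difference was -2.27. Across the alternatives that kept all 4 arrays, 8 of the 11 calls held in every one that tested them, on probe sets of SLAMF1, SLAMF6, SLAMF7, CD48 and CD84.

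The second question was how each resistant line differed from its parent. In Jeko-1/R the clearest differences were in CD84. In this pair 11 of the 26 SLAM probe sets were at or above the floor in either culture, and 2 of them, both of CD84, were at least 2-fold higher in Jeko-1/R, with 0 lower. Over all 22317 probe sets of the pair 0.986% differed 2-fold either way, 0.435% higher and 0.551% lower in Jeko-1/R. Neither CD84 probe set reached 2-fold with a floor at the 75th percentile or a pseudocount of 50. The median log2 ratio was 0.22 for the 11 SLAM probe sets, against 0.003 for all. Of the 11, 9 were above 0, against 11265 of all 22317. The 11 hold several probe sets each of LY9 and CD84 on the same arrays, so they are not independent.

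The CD84 probe set 244352_at read 227 in Jeko-1/R and 102 in Jeko-1, a log2 ratio of 1.15. The probe set 230391_at read 637 in Jeko-1/R and 312 in Jeko-1, a log2 ratio of 1.03. The CD84 probe set 205988_at read 244 and 175, a log2 ratio of 0.48. All 3 CD84 probe sets above the floor on both arrays were thus higher in Jeko-1/R. The first 2 lay above the 95th percentile of probe sets of like signal, which was 0.68 at the level of 244352_at and 0.46 at that of 230391_at.

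SLAMF7 222838_at was at least 1.83-fold higher in Jeko-1/R (142 against 51.9 in Jeko-1, which was below the floor). The 95th percentile at its level was 0.81, and its own bound was 0.87 on the log2 scale. CD48 204118_at went the other way, with 5980 in Jeko-1/R against 8155 in Jeko-1, a log2 ratio of -0.45. It lay below the 5th percentile of probe sets of like signal (-0.28), while the other CD48 probe set stood at 0.22. LY9 had log2 ratios of 0.07, 0.21 and 0.27, a mean of 0.18 ± 0.10 (SD over 3 probe sets of the same arrays). SLAMF6 was at least 1.12-fold higher, and SLAMF1 was below the floor in both Jeko-1/R and Jeko-1, so it has no ratio.

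**Figure D3:**
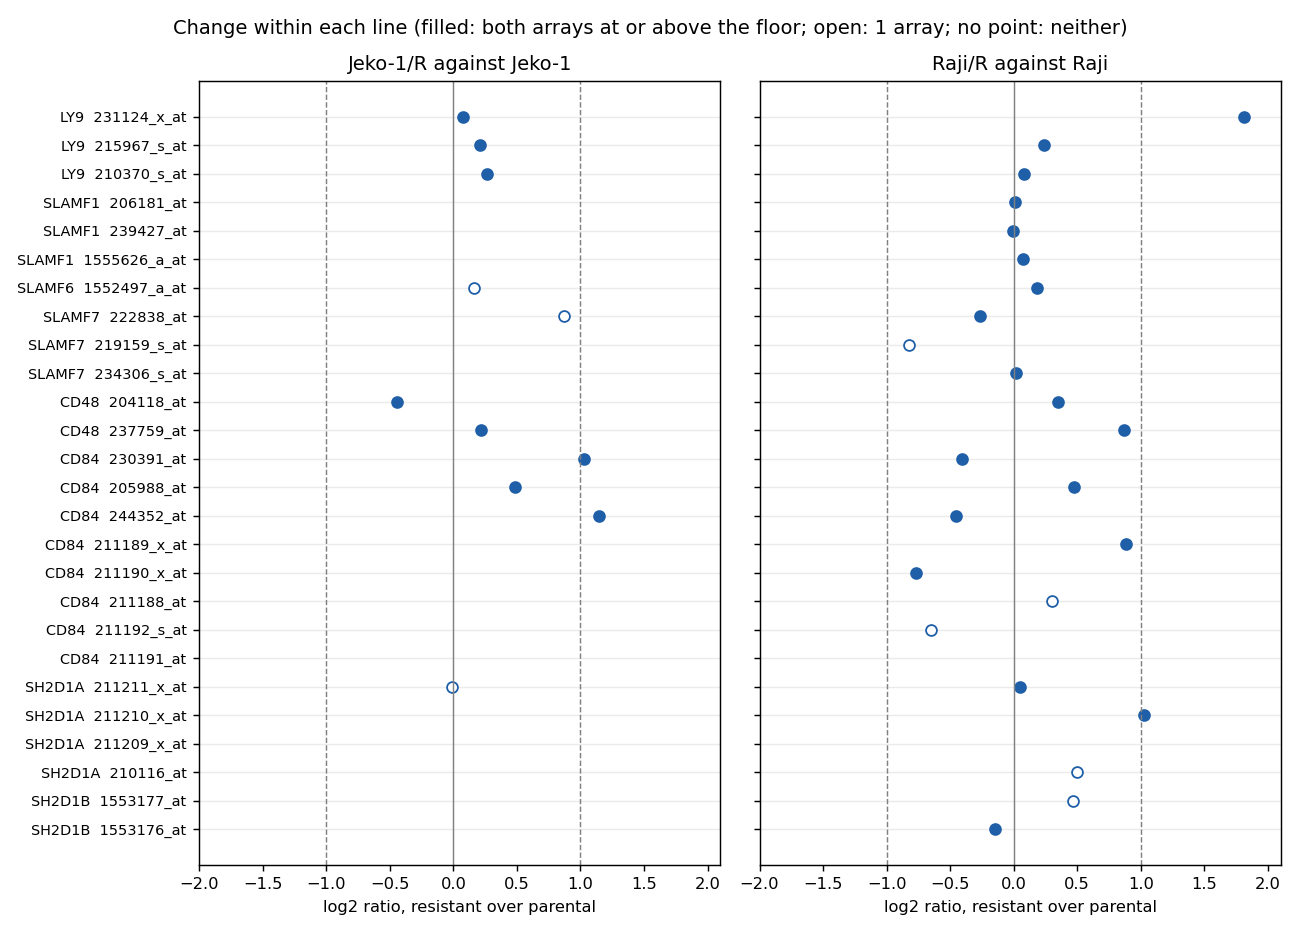
Log2 ratio of resistant over parental signal (x axis) for each SLAM probe set (y axis), Jeko-1/R against Jeko-1 on the left and Raji/R against Raji on the right, with dashed lines at 2-fold. The points past 2-fold were 2 CD84 probe sets in Jeko-1/R, and LY9 231124_x_at and SH2D1A 211210_x_at in Raji/R.

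In Raji/R 2 SLAM probe sets, of LY9 and SH2D1A, were past 2-fold. They were 2 of 24 with a signal in the pair, both higher in Raji/R, with 0 lower. Over all 26874 probe sets 10.4% differed 2-fold either way, 7.43% higher in Raji/R and 2.94% lower. The LY9 probe set was used to choose the list, and outside LY9 1 of 21 SLAM probe sets was past 2-fold (4.76%). The median log2 ratio was 0.08 for the 24 SLAM probe sets, against 0.09 for all.

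LY9 231124_x_at read 2431 in Raji/R and 693 in Raji, a log2 ratio of 1.81, and this is the value that brought LY9 to notice. The other LY9 probe sets stood at 0.24 (775 in Raji/R and 658 in Raji) and 0.08 (448 in Raji/R and 423 in Raji). The 3 probe sets averaged 0.71 ± 0.96 (SD over probe sets). The probe sets of LY9 therefore did not give the same answer. The suffix x_at marks probe sets with probes that can hybridise elsewhere too. The log2 ratio of 231124_x_at was 1.74 to 1.88 with the pseudocount, quantile normalization or lowess adjustment. The alternative floors could not move it, since both signals lay above them. These values describe the probe set used to choose the list and lend it no support.

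SLAMF1 was nearly the same in Raji/R and Raji, with log2 ratios of 0.01, -0.01 and 0.07. SLAMF6 stood at 0.18. SLAMF7 222838_at stood at -0.27, and 219159_s_at was at least 1.77-fold lower, with 58.3 in Raji/R and 137 in Raji. Without a floor, with quantile normalization or after lowess adjustment 219159_s_at was over 2-fold lower, at -1.24, -1.12 and -1.28 on the log2 scale. CD48 204118_at stood at 0.35 and 237759_at at 0.87, both above 0 and short of 2-fold.

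CD84 probe sets pointed both ways in Raji/R. The log2 ratios were -0.41 for 230391_at, -0.46 for 244352_at and 0.48 for 205988_at. The dimmer 211189_x_at and 211190_x_at stood at 0.88 and -0.77, and the last was over 2-fold lower with quantile normalization (-1.33) and after lowess adjustment (-1.34). The CD84 probe sets that were 2-fold higher in Jeko-1/R were thus lower than the parent in Raji/R, by less than 2-fold.

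Among the adaptors SH2D1A 211210_x_at read 191 in Raji/R and 93.9 in Raji, a log2 ratio of 1.03. With quantile normalization or a lowess adjustment for signal level it was not among the probe sets past 2-fold. SH2D1A 211211_x_at stood at 0.05, with 145 in Raji/R and 141 in Raji. SH2D1A 210116_at was at least 1.41-fold higher, with 110 in Raji/R and 9.07 in Raji. Its log2 ratio was 3.59 without a floor and 1.43 with the pseudocount. SH2D1B 1553176_at stood at -0.15, and 1553177_at was at least 1.38-fold higher, with 107 in Raji/R and 47.1 in Raji. The SAP gene thus had 1 probe set past 2-fold, 1 with a bound short of 2-fold and 1 without a comparable difference.

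**Figure D4:**
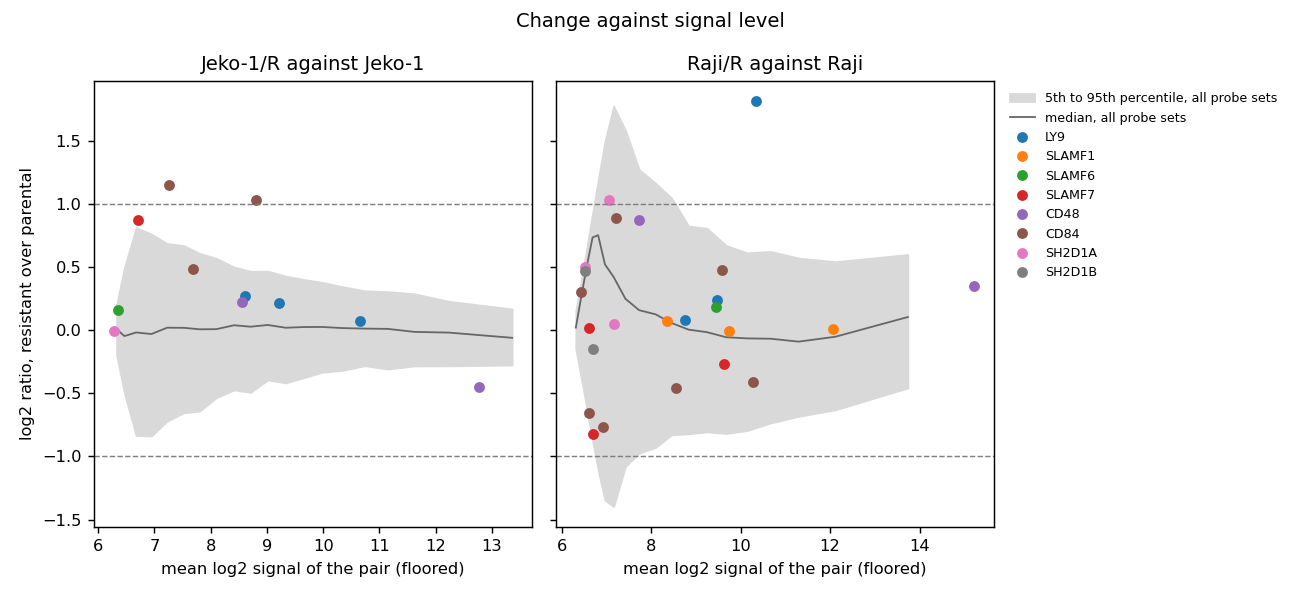
Log2 ratio of resistant over parental signal (y axis) against the mean floored log2 signal of the pair (x axis) for the SLAM probe sets (coloured by gene), with the median (line) and the 5th to 95th percentile (grey) of all probe sets in 20 signal bins. In the Jeko-1 pair 3 SLAM probe sets lay above the grey band and 1 below it; in the Raji pair 1 lay above it, LY9 231124_x_at.

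Across both lines the resistance term of the same limma fit called 0 of the SLAM probe sets outside LY9 and 0 of all 29669 (0.00%). At an unadjusted p under 0.05, 872 of all probe sets passed, and 0 of the SLAM probe sets outside LY9. For those the largest absolute log2 difference between resistant and parental lines was 0.54, for CD48 237759_at (limma adjusted p = 0.986). LY9 has no p here because its Raji/R value was used to choose it. With 1 residual degree of freedom such a fit says little about small differences.

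The other genes of the pathway came from lists chosen with earlier results of these arrays known. The remaining SLAM receptors were near the floor. CD244, the receptor for CD48, read 34.6 in Jeko-1/R and 50.5 in Jeko-1, against 88.6 in Raji/R and 208 in Raji, on 220307_at. Its log2 ratio in Raji/R was -1.23. SLAMF9 1553770_a_at was at least 2.82-fold higher in Raji/R, with 218 in Raji/R and 11.8 in Raji. SLAMF8 219385_at read 16.1 in Raji/R and 89.7 in Raji, and 0 of the 3 probe sets of these genes tested between the lines were called.

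Of 18 SLAM signalling partners 17 could be read, with 45 probe sets tested between the lines. In the Jeko-1 lines 16 were called lower and 14 higher, a share of 66.7%, against 51.0% over all probe sets. By gene, 7 were called only as lower, 7 only as higher, FYN and INPP5D in both directions on different probe sets, and DOK2 not at all. FYN, the kinase that SAP recruits, read 786 in Jeko-1/R and 715 in Jeko-1, against 5223 in Raji/R and 6382 in Raji, on 210105_s_at (log2 difference -2.94 ± 0.20, SE; limma adjusted p = 1.03e-07). PTPN6, the SHP-1 gene, was also lower in the Jeko-1 lines (594 in Jeko-1/R and 541 in Jeko-1, against 1275 in Raji/R and 1434 in Raji; limma adjusted p = 0.000405). PTPN11, the SHP-2 gene, was higher in the Jeko-1 lines on 212610_at (9226 and 9098 in Jeko-1/R and Jeko-1, against 3484 and 4569 in Raji/R and Raji; limma adjusted p = 0.000222). INPP5D, the SHIP-1 gene, read 1455 and 1404 in Jeko-1/R and Jeko-1, against 2918 and 2785 in Raji/R and Raji, on 203332_s_at (limma adjusted p = 0.000629), while 1568943_at was higher in the Jeko-1 lines by 2.07 on the log2 scale. PIK3C3, a lipid kinase that works in a complex with BECN1, was higher on 204297_at (1850 and 1985 in Jeko-1/R and Jeko-1, against 240 and 420 in Raji/R and Raji; limma adjusted p = 2.12e-06), while BECN1 208946_s_at was lower (log2 difference -1.39; limma adjusted p = 8.94e-05). The partners thus did not share a direction.

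Within the lines few partner probe sets were past 2-fold. In Jeko-1/R 0 of 42 differed 2-fold, against 0.986% of all probe sets, with a median log2 ratio of -0.003. In Raji/R 1 of 38 was higher and 1 lower, against 10.4% of all probe sets in either direction, with a median of 0.01. The lower was FYN 212486_s_at (279 in Raji/R and 749 in Raji, a log2 ratio of -1.42), and 210105_s_at of FYN stood at -0.29. The higher was PIK3C3 215394_at, at least 2.60-fold, with 201 in Raji/R and 15.9 in Raji.

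CD2 and CD58 are a receptor and ligand related to the SLAM family. CD2 was below the floor on all 4 arrays. CD58 205173_x_at read 388 in Jeko-1/R and 541 in Jeko-1, against 2733 in Raji/R and 2859 in Raji (log2 difference -2.61 ± 0.21, SE; limma adjusted p = 5.69e-07). In all, 4 of 5 CD58 probe sets were called lower in the Jeko-1 lines, against 25.3% of all probe sets. They read 1 gene on the same arrays.

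The genes whose pattern over the 4 arrays was most like that of LY9 231124_x_at were RAB11FIP5, GCNT7, AATBC, PIGZ and PLAUR. Likeness was the Euclidean distance between floored log2 signals, each centred on its mean over the 4 arrays. It was 0.16 for RAB11FIP5 and 0.28 for PLAUR among 13621 genes. Each gene was read by its brightest probe set, which had to reach the floor on Raji/R. That is the array on which LY9 231124_x_at was highest, so the filter itself favours such patterns. These genes had far lower signals, at 217 to 288 in Raji/R and below the floor in Raji. Their ratios in the Raji pair are therefore bounds, and the likeness holds only for floored signals. GCNT7, for one, read 251 in Raji/R and 23.3 in Raji. The list is a description over 4 arrays.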

How the data were processed

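Total RNA of 4 cell cultures was extracted with Trizol and biotinylated, per the labels' protocols. The submitters' processing notes name MAS5, without a version. Log2 signals were deposited by the authors for 54613 probe sets per culture; base 2 was inferred from the trimmed mean signals of 494 to 497. MAS5 scales an array by a single factor, so differences that depend on signal level remain.

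Gene names came from GEO's platform annotation (41091 with 1 symbol, 1801 with several and 11721 with none, the last groups not analysed here), and 41037 gene IDs matched RefSeq GRCh38.p14. Values below the pooled median, a signal of 77.5, were raised to it. Probe sets with at least 1 array of the comparison at or above this floor were analysed. Within a line, where 1 array lay below the floor the ratio is a bound ("at least"), and 2-fold counted as changed. Lines were compared with limma 3.58.1 (R 4.3.3), cell line and resistance as terms, empirical Bayes with a trend, two-sided, with Benjamini-Hochberg adjustment over 29669 probe sets. Arrays are paired by cell line, as each subline came from its parent. Nothing describes separate cultures, so p-values measure only the spread between these arrays. The number of arrays limits the precision.

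The members and lists were chosen with earlier results of these data known. Named genes were all 8 members, list genes that differed or, in part, were brightest, the 5 genes nearest to LY9 in pattern, and MS4A1; the text names a part of the list genes. RASA1 was not analysed here. Alternatives changed the floor, the pseudocount (50), the scaling, the probe sets and the terms of the fit, and left out each array. In data simulated from the real levels for the line comparison, 200 of 29669 probe sets were changed. All 200 had mean signals more than 4-fold above the floor. The fit recovered 87% of 4-fold and 100% of 8-fold changes, with 0 false calls. Smaller changes, changes at lower mean signals and changes in a large share of probe sets were not simulated. The check therefore does not cover such calls, among them that of SH2D1A 211211_x_at. Tables were handled in pandas 2.3.3 and numpy 2.4.6 under Python 3.11.15, lowess used statsmodels 0.14.6, and plots used matplotlib 3.10.9.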

Additional observations from a re-analysis of the deposited data

Results flagged for a closer look

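Probe sets whose change was in opposite directions in the lymphoma lines and at least 2-fold apart were picked out. CD84 244352_at had log2 ratios of 1.15 for Jeko-1/R over Jeko-1 and -0.46 for Raji/R over Raji, a difference of -1.60 (Raji pair minus Jeko-1 pair). CD84 230391_at had 1.03 over the parent in Jeko-1/R, against -0.41 in Raji/R, a difference of -1.44. SLAMF7 222838_at had a bound of 0.87 in Jeko-1/R, against -0.27 in Raji/R, a difference of -1.14. With 1 array per line these differences were not tested. CD84 205988_at, with log2 ratios of 0.48 in both pairs, did not share the pattern.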

How the results depend on the processing

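In the Jeko-1 pair 2 SLAM probe sets were at least 2-fold changed. Raising the floor to the 75th percentile gave 0, a pseudocount of 50 gave 0, and the count was 1 with quantile normalization and 1 with a single probe set per gene; without a floor it was 3. In the Raji pair the count was 2, and it was 6 without a floor, 1 with the higher floor, 0 without x_at and s_at probe sets (LY9 and SH2D1A were both read by x_at probe sets) and 1 with a single probe set per gene. With quantile normalization the count in the Raji pair was 3, with 1 higher and 2 lower. All probe sets of the Raji pair past 2-fold numbered 7053 without a floor, 4351 with the pseudocount and 230 with the higher floor, against 2787; those of the Jeko-1 pair numbered 893 without a floor, 142 with quantile normalization and 36 with the higher floor, against 220. In the Raji pair 71.7% of them were higher, against 50.1% with quantile normalization and 30.5% after lowess adjustment. The log2 ratios of the LY9 probe sets in the Raji pair moved by less than the SD between probe sets of a gene (0.49) under all 5 alternatives. The higher floor and the lack of a floor could not move them, as these signals lay above the floors. Between the lines 11 of 24 SLAM probe sets were called, against 51.0% of all probe sets. With the higher floor 7 of 12 were called, against 70.0% of all. With a single probe set per gene 6 of 8 were called, against 55.3% of all. Fewer SLAM probe sets were tested in both settings. Leaving out 1 array, which also removes the resistance term, gave 0 to 15 calls, but these were in part other probe sets: of the 11, 0 held without Jeko-1/R and 0 without Jeko-1, 6 without Raji/R and 7 without Raji. With 1 Raji array left out, dim probe sets had both Jeko-1 values at the floor and thus almost no spread. The pairing of arrays by cell line served as the replicate block. Without the resistance term 9 of 24 SLAM probe sets were called between the lines, against 48.5% of all. Without the cell line term the resistance comparison called 0 SLAM probe sets outside LY9, as it did in all its other alternatives. Leaving out an array from that comparison leaves no residual degree of freedom and was not run. Signals near the floor limit what can be said of SH2D1A and SH2D1B.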

Other observations

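SLAMF7 is a plasma cell marker, and other genes of plasma cells differed in both directions. In the Jeko-1 lines 3 of 10 of their probe sets were called higher and 3 lower. Over all probe sets 25.7% were called higher and 25.3% lower, so this split is near the background. TNFRSF17, the BCMA gene, read 10448 in Jeko-1/R and 8257 in Jeko-1, against 696 in Raji/R and 784 in Raji (log2 difference 3.65 ± 0.20, SE; limma adjusted p = 1.99e-08). IRF4, a transcription factor of activated B cells and plasma cells, read 6385 in Jeko-1/R and 5515 in Jeko-1, against 332 in Raji/R and 175 in Raji on 204562_at (limma adjusted p = 1.00e-08). XBP1, a regulator of antibody secretion, was lower in the Jeko-1 lines on 200670_at (3426 and 2729 in Jeko-1/R and Jeko-1, against 5746 and 6710 in Raji/R and Raji; limma adjusted p = 0.000861). SDC1 201287_s_at, the syndecan-1 gene, was lower too (80.8 and 99.6 in Jeko-1/R and Jeko-1, against 153 and 211 in Raji/R and Raji; limma adjusted p = 0.0288). PRDM1, a plasma cell transcription factor, was lower on 217192_s_at (log2 difference -1.55; limma adjusted p = 0.00527) and higher on 228964_at (log2 difference 1.20; limma adjusted p = 0.025). NKG7, on the NK-cell list, read 28.1 in Jeko-1/R and 59.2 in Jeko-1, against 1749 in Raji/R and 883 in Raji (limma adjusted p = 1.23e-06).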
